A study of Oryctolagus cuniculus with 8 samples.

Results

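The chemokine genes CCL2, CXCL8 and GRO-A were followed across cultured rabbit cells of 3 kinds: stem cells from embryos (ES cells), pluripotent cells obtained by reprogramming (iPS cells), and somatic cells of liver and stomach, the tissues of origin of the iPS lines. Every probe of the array whose RefSeq accession belongs to 1 of these genes was taken, whatever its values. This gave 16 of 43603 probes and 3 of the 680 genes that could be named: 4 probes of CCL2, 7 of CXCL8 and 5 of GRO-A. RNA was measured on 8 Agilent arrays of 1 colour (Cy3), 1 for each sample, in 4 groups of 2. All cells came from the Dutch rabbit strain. The ES group held the lines rdES4 and rdES2-1. The iPS lines were iPS-L1, of liver origin, at passages 7 and 23, and iPS-S1, of stomach origin, at passages 6 and 22. The somatic group held 1 culture of liver cells and 1 of stomach cells. The somatic cultures grew in another medium than the ES and iPS cells, so that medium and cell type cannot be told apart. Each tissue gave 1 iPS line, and the reprogramming factors are not given in the sources used here. Nothing in the labels says that samples of a group were separate animals, so p-values reflect the variation among these cultures alone, some of it possibly technical.

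Chemokines are small secreted proteins that attract white blood cells along a gradient by binding receptors on their surface. CCL2, a CC chemokine, attracts monocytes, mainly through the receptor CCR2. CXCL8 (interleukin 8) and GRO-A (growth-regulated protein alpha) are CXC chemokines that attract neutrophils, CXCL8 through CXCR1 and CXCR2 and GRO-A mainly through CXCR2. Connective tissue cells, endothelial cells and epithelial cells make all of these when cytokines such as interleukin 1 and tumour necrosis factor, or bacterial products, switch on the transcription factor NF-kB.

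Levels are given as the log2 of the intensity, the brightness of a spot after background subtraction, minus the 75th percentile of the same array, so that 0 is that percentile. The 75th percentile lay between 273.8 and 341.5 intensity units on the 6 ES and iPS arrays, at 163.8 in liver cells and at 154.8 in stomach cells. Between 62.4% and 64.7% of probes were well above background on the ES and iPS arrays, against 57.8% and 58.4% on the somatic ones. POU5F1, the pluripotency factor Oct4, had levels of 6.69 to 7.62 in ES and iPS cells and of -3.63 and -3.46 in liver and stomach cells. ALB and APOA1, genes of hepatocytes, and ATP4B, a gene of the gastric acid pump, were well above background on none of the 8 arrays. Other genes of these lists were detected: TF, the iron carrier transferrin, at -1.62 in liver and -2.83 in stomach cells (0.29 to 2.09 in ES and iPS cells), HP, haptoglobin, at -2.53 and 2.16, PGC, a pepsinogen, at -3.95 and -4.08, and ATP4A in stomach cells alone of the somatic cultures (-4.40). On the 6 ES and iPS arrays HP was at -1.93 to 0.50 and PGC at -4.27 to -2.94. ATP4A was well above background on all 6, at -4.05 to -3.61, higher than in stomach cells. The summed level of the 4 named hepatocyte genes was 0.52 and 4.64 in the somatic cultures and 2.33 to 4.89 in ES and iPS cells, on a linear scale where 1 is the 75th percentile. The 4 named genes of the fibroblast and mesenchyme list (DCN, MGP, CAV1 and MMP2) were all well above background on both somatic arrays, and 2 to 3 of them on each ES and iPS array. The summed level of the 4 named smooth muscle genes was 81.7 and 223.5 in the somatic cultures and 17.3 to 39.1 in ES and iPS cells. Arrays of several groups shared slides: slide 1 carried rdES4, both passages of the liver line and liver cells, slide 2 rdES2-1 and stomach cells, and slide 3 both passages of the stomach line.

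RNA of CCL2 and GRO-A was higher in somatic cells than in ES or iPS cells. CXCL8 RNA was higher in somatic than in iPS cells, and its call against ES cells depended on the probe. For each of the 16 probes, every ES and iPS array lay below both somatic arrays after scaling. This was the case for 35% of the 28844 probes tested. In iPS against somatic cells, all 16 probes passed the threshold (limma, Benjamini-Hochberg adjusted p under 0.05) and were lower in iPS cells, where 66.6% of all probes tested passed and 32.4% were lower. In ES against somatic cells, 13 of the 16 passed, all lower in ES cells, where 64% of all probes tested passed and 29.6% were lower. A call is thus common in these comparisons, and the sizes of the differences say more than their count. The count is also tilted by the filter, since 8 of the 16 chemokine probes entered the test through the somatic arrays alone. For these 8 the filter favoured lower values in ES and iPS cells. The brightest probe of each gene was not among them. In iPS against somatic cells, 0.142% of all probes tested had a difference as low as that of the brightest CCL2 probe, 0.0485% as low as that of GRO-A and 6.85% as low as that of CXCL8. The median difference over all probes tested was 0.019. In bulk RNA of this kind, fewer cells that make a transcript and less of it per cell cannot be told apart.

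**Figure D1:**
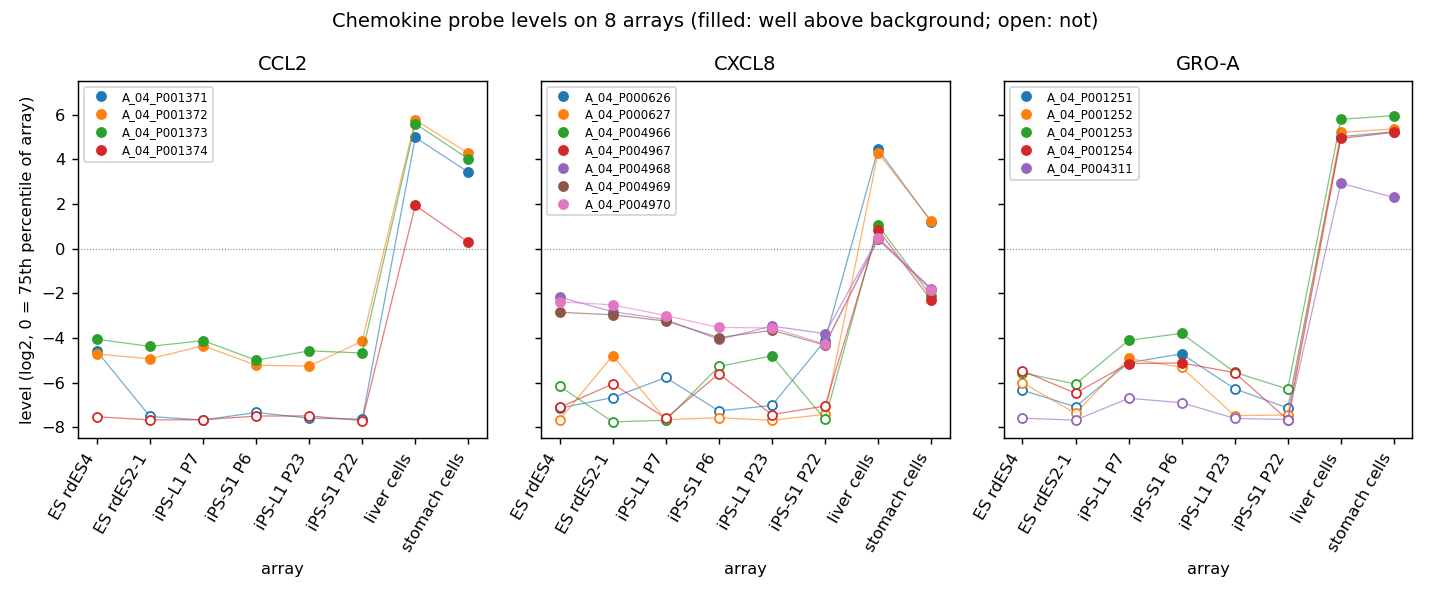
Level of each probe of CCL2, CXCL8 and GRO-A (vertical axis, log2, with 0 at the 75th percentile of the array) on the 8 arrays (horizontal axis). Filled points were well above background and open points were not, and lines join the values of a probe. Every probe is highest on the somatic arrays, and 3 of the 7 CXCL8 probes stay between -2.18 and -4.32 on the ES and iPS arrays while most others fall to the background.

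CCL2 was among the brighter signals of the somatic arrays and low in every ES and iPS culture. The probe A_04_P001373, the brightest of the 4, stood at 5.59 in liver cells and 4.01 in stomach cells. It stood at -4.06 in rdES4 and -4.38 in rdES2-1, at -4.12 and -4.58 in the liver line at passages 7 and 23, and at -5.00 and -4.68 in the stomach line at passages 6 and 22. The 6 ES and iPS values thus spanned less than 1 log2 unit and lay more than 8 log2 units below the lower somatic value. In intensity units this was 9.54 to 19.6 against 7902 in liver and 2501 in stomach cells. Relative to somatic cells (4.80 ± 1.12, SD, n = 2) the gene was 674-fold lower in iPS cells (-4.59 ± 0.35, SD, n = 2 lines, each the mean of its passages), a log2 difference of -9.40 ± 0.54 (SE, limma adjusted p = 2.26e-04). In ES cells (-4.22 ± 0.23, SD, n = 2) it was 521-fold lower, at -9.02 ± 0.54 (SE, limma adjusted p = 2.50e-04). The other 3 probes of CCL2 gave the same direction, and all 4 passed in both comparisons, with differences of -11.76 to -8.70 in iPS and of -10.25 to -8.71 in ES cells. A_04_P001372 was, like A_04_P001373, well above background on all 8 arrays. A_04_P001374 was so on none of the ES and iPS arrays, so that its values bound the fold at 89.7 or more in iPS and 95.2 or more in ES cells. A_04_P001371 was well above background on rdES4 alone among these 6 (-4.60, against -7.68 to -7.34 on the other 5) and its bound in iPS cells was 763-fold or more.

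GRO-A was, by the brightest probes, the most distant of the 3 from its somatic level and the most alike in the somatic cultures, although 1 CCL2 probe, A_04_P001371, had a fitted difference in iPS cells (-11.76) beyond that of any GRO-A probe. Its brightest probe, A_04_P001253, stood at 5.78 in liver cells and 5.95 in stomach cells, or 9022 and 9602 intensity units. In iPS cells it stood at -4.11 and -3.80 at the early passages (liver and stomach line) and at -5.54 and -6.29 at the late ones. In ES cells it stood at -5.56 and -6.06. The early iPS arrays were the only ES or iPS arrays on which this probe was well above background. The difference from somatic cells (5.87 ± 0.12, SD, n = 2) was -10.80 ± 0.22 (SE, limma adjusted p = 6.26e-05) in iPS cells, 1788-fold, or 1493-fold with each late array set no lower than its dimmest detected probe. ES cells were at least 2583-fold lower by the bound described below (limma adjusted p = 5.83e-05). All 5 probes passed in both comparisons. The fitted differences ran from -11.57 to -9.82 in iPS and from -11.97 to -10.24 in ES cells, and none of the 5 was well above background on an ES array. A_04_P001251 was printed as 5 spots, whose log2 values had an SD of 0.03 on each somatic array and of 0.28 to 0.74 on the ES and iPS arrays.

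CXCL8 differed from the other genes in that its probes fell into sets with unlike differences. The brightest by mean level, A_04_P004970, stood at 0.45 in liver cells and -1.84 in stomach cells. It stood at -2.38 and -2.52 in rdES4 and rdES2-1, at -3.00 and -3.55 in the liver line and at -3.53 and -4.28 in the stomach line at the early and late passage. Liver cells were well apart from all others, while stomach cells lay close above rdES4. Before scaling the groups overlapped: the intensity in stomach cells was 43.3, and in rdES4 and rdES2-1 it was 52.5 and 54.1. The difference from somatic cells (-0.69 ± 1.62, SD, n = 2) was -2.90 ± 0.76 (SE, limma adjusted p = 0.0213), 7.46-fold lower, in iPS cells (-3.59 ± 0.44, SD, n = 2 lines). ES cells (-2.45 ± 0.10, SD, n = 2) did not pass, at -1.76 ± 0.76 (SE, limma adjusted p = 0.0953, 95% interval -3.70 to 0.18). A_04_P004968 and A_04_P004969 gave like values, -2.97 and -3.09 in iPS cells, which passed, and -1.84 and -2.20 in ES cells, which did not (limma adjusted p = 0.0892 and 0.0507). On every one of the 8 arrays these 3 probes were well above background. Both passed in ES cells with all 8 arrays fitted and the iPS line as a random block (limma adjusted p = 0.0479 and 0.0242), with normexp background correction (-1.36 and -1.43) and without the stomach cells (-2.97 and -3.32). A_04_P004969 also passed there without the liver cells (-1.07), without the early liver-line or the late stomach-line array (-2.20 in either case), with the percentile taken over detected probes (-2.23), and with a filter on all arrays or raised dim values (-2.20). In iPS cells A_04_P004968 did not pass without scaling (-1.96, limma adjusted p = 0.0554), nor A_04_P004969 with slide as a block (-3.33). The stomach line, alone on slide 3, adds nothing to the iPS value with slide as a block.

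The other 4 CXCL8 probes showed a far larger difference. All 4 entered the test through the somatic arrays alone, so the filter favoured this direction. A_04_P000626 stood at 4.44 in liver cells and 1.20 in stomach cells, and between -7.27 and -4.12 on the ES and iPS arrays, of which the late stomach line alone was well above background. A_04_P000627 stood at 4.29 and 1.24 in the somatic cells and between -7.69 and -4.80 on the others, of which rdES2-1 alone was well above background. Both were lower in iPS cells, by 8.87 ± 1.06 (SE, limma adjusted p = 0.00156) and at least 283-fold (limma adjusted p = 0.00193), and in ES cells, at least 313-fold (limma adjusted p = 0.00117) and by 8.99 ± 1.32 (SE, limma adjusted p = 0.00315). A_04_P004966 and A_04_P004967 were dimmer in somatic cells (1.03 and 0.84 in liver, -2.13 and -2.31 in stomach cells) and also passed in both comparisons. A_04_P004966 was lower by 5.81 ± 1.12 (SE) in iPS and at least 30.3-fold in ES cells, and A_04_P004967 by 25.1-fold or more and 26.6-fold or more. The size of the CXCL8 difference therefore depended on the probe, from -10.35 to -2.90 in iPS and from -9.73 to -1.76 in ES cells, and the position of each probe on the transcript was not used here. With the mean of its 7 probes in place of the brightest, CXCL8 passed in ES cells as well (-5.26, limma adjusted p = 0.00498) and was at -5.74 in iPS cells.

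The CXCL8 difference by the brightest probe was smaller without the liver cells, -1.75 in iPS (limma adjusted p = 0.00895) and -0.61 in ES cells (limma adjusted p = 0.145). Without the stomach cells it was -4.05 in iPS (limma adjusted p = 0.0012) and -2.91 in ES cells, where it then passed (limma adjusted p = 0.00248). It did not pass in iPS cells without scaling between arrays (-1.89, limma adjusted p = 0.0619) or with slide as a block (-3.19). The stomach line was the only unit on slide 3, so with slide as a block the iPS value rested on the liver line alone. That fit left 1 degree of freedom for the spread, against 3 in the main fit. CCL2 and GRO-A passed against somatic cells in every alternative that gave a value. Within slide 1, the liver line minus liver cells was -9.94 for CCL2, -3.73 for CXCL8 and -10.61 for GRO-A, and rdES4 minus liver cells was -9.65, -2.84 and -11.35. Within slide 2, rdES2-1 minus stomach cells was -8.40 for CCL2, -0.68 for CXCL8 and -12.02 for GRO-A. The stomach line and stomach cells lay on different slides and differed by -8.85, -2.07 and -11.00 for the same genes.

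**Figure D2:**
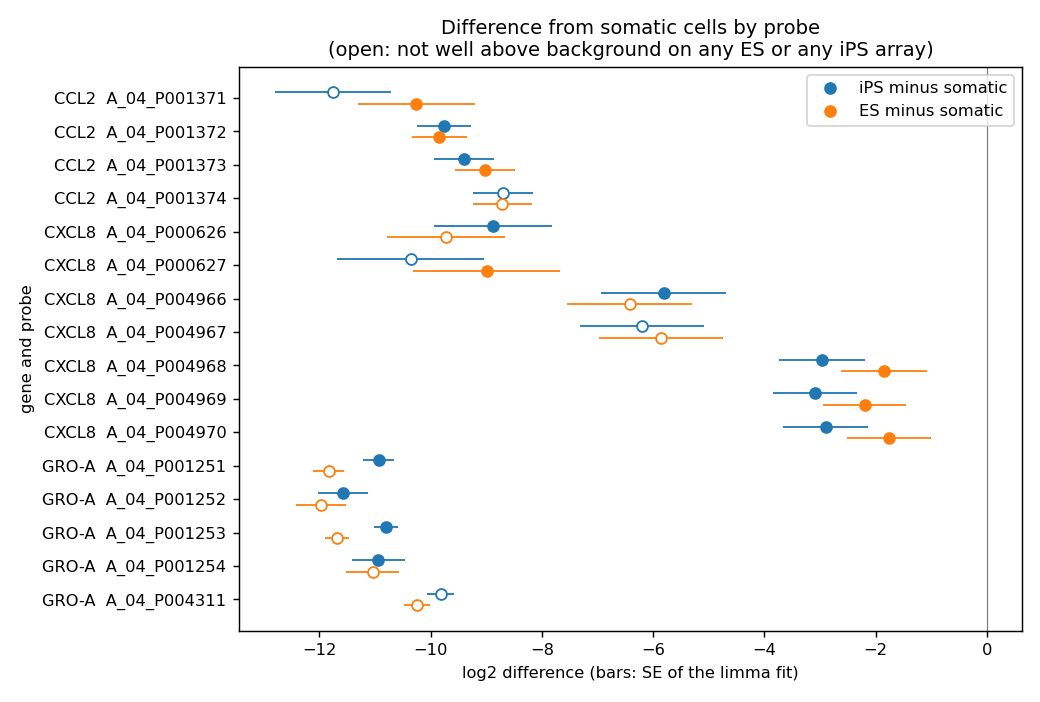
Log2 difference of iPS (blue) and ES cells (orange) from somatic cells for each of the 16 probes (horizontal axis, with the SE of the limma fit as bars). Open points mark a group without any array well above background, whose fitted value is not a bound. The 3 CXCL8 probes measured on every array lie at -3.09 to -1.76, and all other probes lie at -5.81 or lower.

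Liver and stomach cells, with 1 array each, allow no test between them. All 4 CCL2 probes were 2.83- to 3.14-fold higher in liver than in stomach cells. All 7 CXCL8 probes were higher in liver cells too, 4.77- to 4.90-fold by the 3 probes that were well above background everywhere and 8.25- to 9.48-fold by the other 4. GRO-A was nearly level: 4 of its probes were 1.12- to 1.21-fold higher in stomach cells and A_04_P004311 was 1.55-fold higher in liver cells. For scale, the SD of the log2 difference between these cultures over all probes tested was 0.76. Of those probes, 0.908% had a larger liver excess than the brightest CXCL8 probe and 2.20% a larger one than that of CCL2, while 37.0% had a smaller absolute difference than that of GRO-A. Cytokine genes were split in direction: IL1A, a cytokine that induces chemokines, was higher in liver cells by 3.36 log2 units, and its antagonist IL1RN (-2.22) and IL6 (-1.19), another inflammatory cytokine, were lower there.

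**Figure D3:**
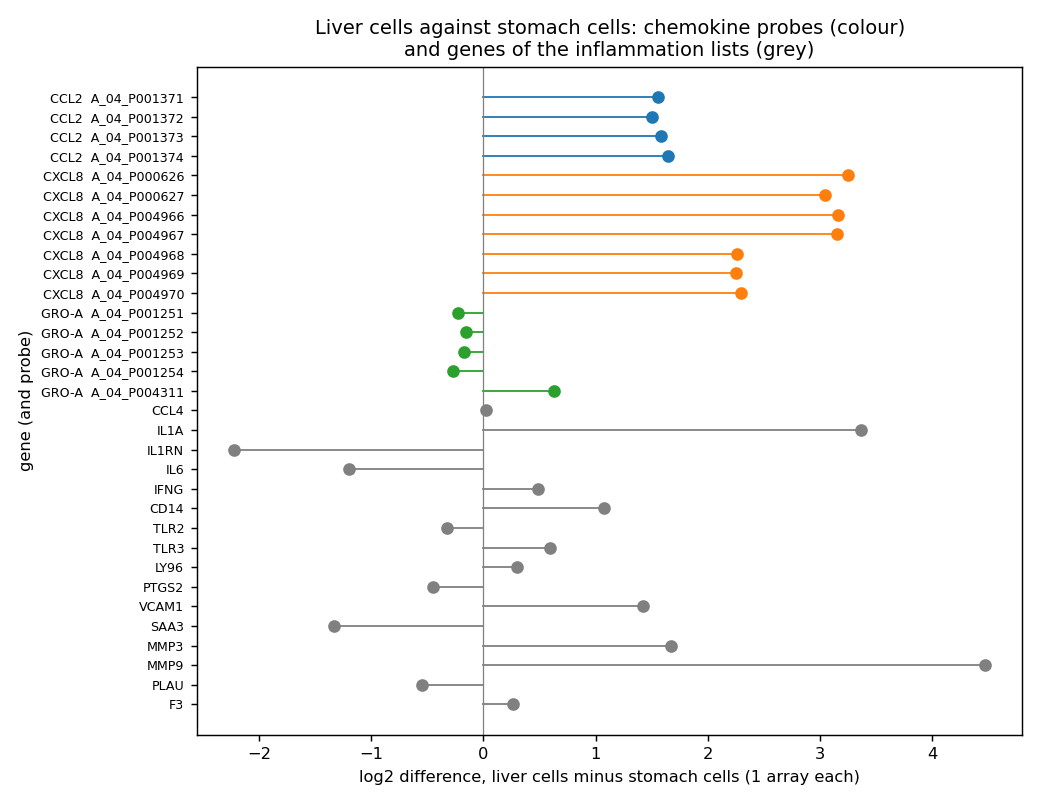
Log2 difference between liver and stomach cells, 1 array each (horizontal axis), for the 16 chemokine probes in colour and for 16 genes of the chemokine, cytokine, pattern recognition and NF-kB target lists in grey. All probes of CCL2 and CXCL8 lie to the right of 0, and GRO-A probes lie between -0.27 and 0.63.

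iPS cells were compared with ES cells to see whether chemokine RNA differed between pluripotent cells of different origin. None of the 16 probes passed, nor did any of the 28844 probes tested (0%, with 2140 at an unadjusted p under 0.05), and 2 of the 16 had an unadjusted p under 0.05, both of GRO-A. With the iPS line as a random block, 6 of all probes passed. By the brightest probes CCL2 differed by -0.37 (95% interval -1.76 to 1.02) and CXCL8 by -1.14 (95% interval -3.08 to 0.81). The spread behind these intervals was shared by all 3 groups. It was largest in the somatic group, 1 liver and 1 stomach culture, with an SD of 1.12 for CCL2 and 1.62 for CXCL8. In ES cells the SD was 0.23 and 0.10. The width of the intervals thus reflects in part the gap between liver and stomach cells. Every iPS array was below both ES arrays by this CXCL8 probe. Of the 7 CXCL8 probes, 5 were lower in iPS cells, and the differences ran from -1.36 to 0.86. GRO-A was higher in iPS cells by its brightest probe, at 0.88 ± 0.22 (SE, limma adjusted p = 0.512, 95% interval 0.33 to 1.43). Neither the ES arrays nor the late iPS arrays were well above background for this probe, so no bound can be given. All 5 GRO-A probes had a positive difference here, between 0.10 and 0.90. With arrays left out in turn the GRO-A value ran from 0.25 without the early stomach-line array to 1.50 without the late one (0.52 without the early liver-line array), and it was 0.078 with normexp background correction.

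Early and late passages of the same lines were set against each other to follow chemokine RNA with time in culture. GRO-A was lower at the late passage in both lines, but did not pass. Its brightest probe changed from -4.11 to -5.54 in the liver line and from -3.80 to -6.29 in the stomach line, so that the late values reached the range of the ES lines (-5.56 and -6.06) while the early ones lay above it. The difference was -1.96 ± 0.30 (SE, limma adjusted p = 0.308, 95% interval -2.69 to -1.23), and the late arrays, not well above background, set it at 2.72-fold or more. The other 4 GRO-A probes were also lower at the late passage in both lines, with mean differences of -2.35 to -0.83. Of the 5 spots of A_04_P001251, 4 were well above background on 1 early array and 5 on the other, and 0 on the late and ES arrays. Intensities of the brightest GRO-A probe were 19.7 and 22.0 at the early and 7.34 and 3.79 at the late passage, so these differences lie at the edge of detection, against 9022 and 9602 in somatic cells. By the brightest probes CXCL8 was at -0.65 (limma adjusted p = 0.878) and CCL2 at -0.07 (95% interval -1.38 to 1.25). The spread was shared here by 4 groups, and for these probes the somatic group had the largest SD. Over its 7 probes CXCL8 ran from -0.65 to 0.95. None of the 16 probes passed and 4 had an unadjusted p under 0.05, all of GRO-A, while 8 of the 28844 probes tested passed (0.0277%) and 2412 had an unadjusted p under 0.05. With the line as a block 0 of all probes passed, and with any 1 array left out 0 or 1 did.

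**Figure D4:**
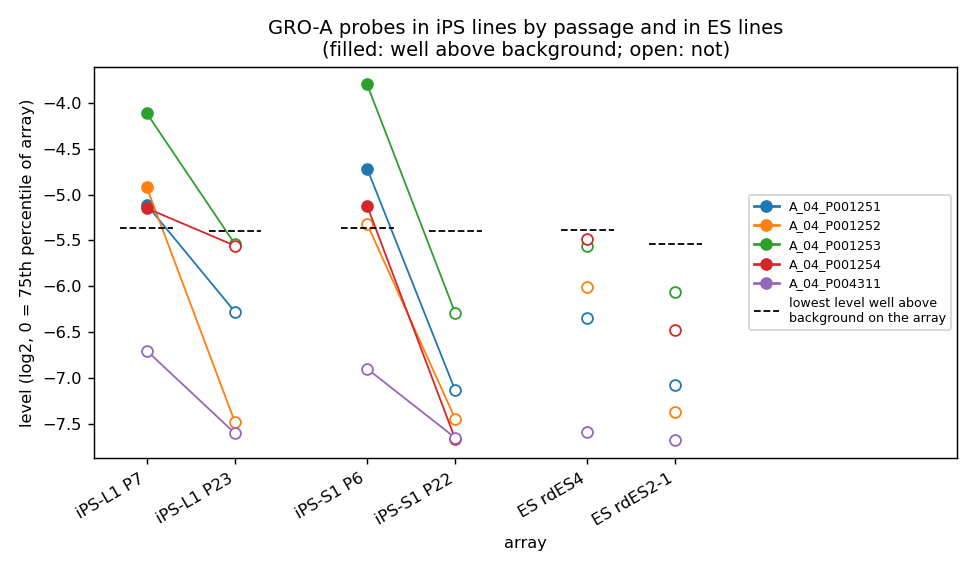
Levels of the 5 GRO-A probes (vertical axis, log2, with 0 at the 75th percentile of the array) in the liver line and the stomach line at the early and late passage, joined by lines, and in both ES lines. Filled points were well above background, and the dashed lines give the lowest level well above background on each array (-5.54 to -5.36). Every line slopes down, and no late or ES point is filled.

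Values of connective tissue genes with passage are given beside those of GRO-A. CAV1, the coat protein of caveolae, was at -3.03 in the liver line and -3.26 in the stomach line by its brightest probe (late minus early, log2), which did not pass. All 7 of its probes had a negative difference, and 1, A_04_P004337, fell by 3.40 (limma adjusted p = 0.0379). MGP, an inhibitor of calcification, was at 4.70 and 3.39 by its brightest probe, and its 9 probes, with differences of 1.63 to 4.05, did not pass. The 6 probes of MMP2 were at -0.21 to -0.070 and did not pass. DCN, a matrix proteoglycan, was well above background on no ES or iPS array by 5 of its 6 probes. A_04_P068850 was so on both late arrays and rose by 4.04 (limma adjusted p = 0.0386), from early values not well above background. The calls of A_04_P004337 and A_04_P068850 were lost with the line as a block and with raised dim values, where 0 of all probes passed. VCAM1, an adhesion molecule for white blood cells that is not in this list, was at 3.69 and 4.42 by its brightest probe, and its 5 probes, at 0.18 to 4.05, did not pass. The summed level of the fibroblast and mesenchyme list by brightest probes (4 of 11 genes named), on the linear scale, was 2.65 and 3.14 at the early passage, 2.08 and 2.36 at the late one, 1.88 and 2.21 in ES cells, and 105.6 and 197.8 in somatic cells. The part of these cells in the chemokine levels was not tested.

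Few other genes of chemokine signalling could be named on the array. Of 35 further chemokine ligands 1 was named, CCL4, which attracts T cells and monocytes. It fell in iPS and ES cells, by 2.61 ± 0.15 and 2.28 ± 0.15 (SE, limma adjusted p = 2.12e-04 and 2.90e-04), with 0.13 and 0.10 in liver and stomach cells and -2.75 to -2.09 elsewhere. Of 23 receptors only CX3CR1 was named, and it was well above background on no array. In these comparisons with somatic cells 231 of the 509 named genes tested (45.4%) were called lower in iPS and 217 (42.6%) in ES cells, and the counts of each list below stand against these shares.

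Cytokines that induce chemokines, and their inhibitors, were lower in ES and iPS cells. All 4 tested of 15 listed passed in both comparisons, with a median difference of -7.76 in iPS and -7.23 in ES cells (-7.29 and -6.92 with IL6 at its bound). The median over all probes tested, most of them without a gene name, was 0.019 and 0.070. IL6 was lower by 125.6-fold or more in iPS and 133.3-fold or more in ES cells. Its probe and that of IL1A entered the test through the somatic arrays alone, so the filter favoured lower values in ES and iPS cells. IL1RN, the antagonist of the interleukin 1 receptor, was at -7.92 ± 0.73 in iPS and -7.68 ± 0.73 in ES cells, and IFNG, interferon gamma, at -4.34 ± 0.20 and -4.18 ± 0.20 (SE). IL1A was at -7.61 ± 1.80 and -6.78 ± 1.80 (SE), with levels of 2.91 in liver cells, -0.45 in stomach cells, -3.36 in rdES4 and -3.63 in the early stomach line, and this probe was not well above background on the other 4 arrays. It did not pass without the liver cells (-5.93 in iPS, limma adjusted p = 0.054, and -5.10 in ES cells, limma adjusted p = 0.0812) or, in ES cells, without rdES2-1 (-4.59, limma adjusted p = 0.0814). IL1B, TNF and IL10 had probes but were not tested, since none was well above background on both arrays of a group.

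Receptors of bacterial and viral products and their partners were lower as well. All 4 tested of 25 listed genes of pattern recognition and the NF-kB pathway passed in both comparisons, with medians of -3.24 in iPS and -3.29 in ES cells (-2.59 and -2.67 with TLR3 at its bound). CD14, the co-receptor for bacterial lipopolysaccharide that marks monocytes and macrophages, was at -3.27 ± 0.42 and -3.30 ± 0.42, and TLR2, a receptor of bacterial lipoproteins, at -3.21 ± 0.17 and -3.28 ± 0.17 (SE). TLR3, a receptor of double-stranded RNA, was lower by 3.93-fold or more and 4.17-fold or more. The TLR3 probe entered the test through the somatic arrays alone, so the filter favoured this direction. LY96, a partner of TLR4, was at -0.63 ± 0.17 and -0.77 ± 0.17 (SE). Without scaling between arrays LY96 turned to 0.38 and 0.10 and did not pass, and it did not pass with slide as a block, without the liver cells in iPS (-0.48) or without rdES4 in ES cells (-0.66). MAP2K1, a kinase upstream of AP-1 and the only named gene of 15 in its list, did not pass, at 0.16 ± 0.14 in iPS and -0.35 ± 0.14 in ES cells (SE), and without scaling it was at 1.17 in iPS cells and passed (limma adjusted p = 0.00362). Of 7 listed genes for decay of AU-rich transcripts, none was named. The macrophage and leukocyte list (3 of 8 genes named) had a summed level of 0.55 and 1.14 in somatic cells and of 0.10 to 0.21 in ES and iPS cells, and CD3E and CD4 were each well above background on at most 1 array.

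Other targets of NF-kB were lower too, in 6 of 7 tested (of 22 listed), with medians of -4.67 in iPS and -4.81 in ES cells. SAA3, an acute phase protein, had levels of 6.61 and 7.95 in liver and stomach cells and was well above background on no ES or iPS array. This put the fold at 6465 or more in iPS and 6865 or more in ES cells. The SAA3 probe entered the test through the somatic arrays alone, so the filter favoured this direction. PTGS2, the inducible cyclooxygenase, was at -8.51 ± 0.23 and -8.04 ± 0.23 (SE). VCAM1 was at -9.72 ± 0.48 (SE) in iPS cells, and at least 761-fold lower in ES cells by its brightest probe, which among ES and iPS arrays was well above background on the late passages alone. Another of its 5 probes was so on rdES2-1. MMP9, a gelatinase, was at -4.67 ± 1.51 and -4.81 ± 1.51 (SE), with 5.08 in liver and 0.61 in stomach cells, and did not pass without rdES4 or without rdES2-1 in either comparison (-5.45 to -4.18), nor in either without a filter on dim probes (-4.67 and -4.81), nor, in iPS cells, without the late liver-line array (-4.44) or without scaling (-3.66). PLAU, the urokinase (-3.20 and -3.57), and F3, tissue factor (-2.18 and -2.44), passed in both, F3 by 1 of its 2 probes. MMP3, stromelysin, did not, at -0.84 ± 0.60 in iPS and 0.39 ± 0.60 in ES cells (SE) by its brightest probe. That probe was at -1.68 in iPS without the stomach cells and at 1.22 in ES cells without the liver cells. The other of its 2 tested probes was at 1.91 in iPS and -0.0089 in ES cells and did not pass, so the direction depended on the probe. MMP2, which cleaves CC chemokines, was lower by 2.18 ± 0.20 and 2.13 ± 0.20 (SE).

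The named genes with the profile most like each chemokine over the 8 arrays were found by the root mean square difference of levels, after each gene was centred on its own mean. These values describe 8 arrays that share lines and slides and that differ above all between somatic and other cells. For CCL2 they were CTSE, an aspartic protease (0.37 log2 units, Pearson r 0.996), PTGS2 (0.72, r 0.988), AOX1, an aldehyde oxidase (0.77, r 0.986), LGALS3, a galectin (0.89, r 0.993) and IL18, a cytokine (0.90, r 0.985). For GRO-A they were DCN (1.01, r 0.979), CCL2 (1.28, r 0.976), CTSE (1.33, r 0.977), BDKRB1, a bradykinin receptor (1.39, r 0.983) and IL6 (1.61, r 0.958). For CXCL8 by its brightest probe they were TNFSF13, a cytokine of the tumour necrosis factor family (0.54, r 0.923), CYBA, a subunit of the phagocyte oxidase (0.58, r 0.907), DPEP1, a dipeptidase (0.61, r 0.909), ST7 (0.69, r 0.870) and OVGP1, an oviduct glycoprotein (0.73, r 0.894). For the CXCL8 probe A_04_P000626, a choice made after its values were seen, the nearest were instead CTSE (1.04), CCL2 (1.09), IL6 (1.26), BDKRB1 (1.27) and PTGS2 (1.29). Among the chemokines themselves, CCL2 and GRO-A lay closest (1.28), CCL2 and CXCL8 at 2.96 (r 0.860), and CXCL8 and GRO-A at 3.89 (r 0.792). By all their probes, CTSE, AOX1, IL18 and IL6 were well above background on the somatic arrays alone.

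In NCBI's RefSeq annotation of the rabbit genome (mOryCun1.1), GRO-A and CXCL8 lie on the same chromosome with 7 genes between them, 5 of them protein coding, and CCL2 lies on another. One of those between is CXCL1, a CXC chemokine gene that had no named probe, so whether the GRO-A probes also bind its transcript was not tested.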

How the data were processed

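RNA of 8 samples was hybridised to 8 Agilent arrays. The authors deposited intensities, which per the file headers came from Agilent Feature Extraction 10.5.1.1 (the program also named in the submitters' processing notes) and carry marks for spots well above background. The authors' value table holds log2 values. It matched intensities scaled to the 75th percentile of each array and centred per probe on the median, and served as an alternative.

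From log2 of each processed signal, the array's 75th percentile over probes other than controls was subtracted. Spots of a probe were averaged, and a probe was taken as well above background where more than 50% of its spots were. Leaving out 38 probes with a spot marked uneven or outlying, 28844 probes well above background on both arrays of at least 1 group were tested, all 16 chemokine probes among them. A chemokine probe could pass this filter through the somatic arrays alone, and 8 of the 16 did. Probes of other genes could pass in the same way. Names came from RefSeq accessions through the mOryCun1.1 gene table (1933 probes, 680 genes). Depth does not apply to arrays, whose number, 2 per group, limits the precision.

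Tests used limma 3.58.1 in R 4.3.3, two-sided, with Benjamini-Hochberg adjustment over all tested probes. Against somatic or ES cells, the passages of an iPS line were averaged, leaving 6 units in 3 groups with a shared spread. Late against early passage used all 8 arrays in 4 groups. The lines pair early with late arrays by the labels; deviations from the group means correlated at 0.22 over probes, and the consensus correlation within a line was 0.16. In simulated data for iPS against somatic cells over 28844 probes, 84 of 100 changes of 2 log2 units and 96 of 100 of 4 were recovered, with 8 false calls. The simulated noise was independent on each array, also within a line, and far fewer probes changed than were called in the data. These shares need not hold for the real comparisons.

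The brightest probe by mean level stands for a gene. Beside the chemokine probes, the genes named were up to 4 tested members of each list in alphabetical order, any list member called in iPS against somatic or ES cells, and the 5 nearest profiles of each chemokine. Where no array of a group had a probe well above background, its fold is a bound: the bright group's mean against the dim group's, each dim array taken at the higher of its own level and the lowest level well above background there. That lowest level is taken over all probes of the array and need not be the detection limit of the probe in question. On the early stomach-line array A_04_P004966 was undetected at -5.28, above the lowest detected level of -5.36. The bounds are therefore approximate. Alternatives were quantile normalization, no scaling, a percentile over detected probes, normexp (on median signals), other filters on dim probes, raised dim values, the mean of all probes, slide and line as blocks, and each array left out. Members and gene lists were chosen with earlier results of these data known.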

Additional observations from a re-analysis of the deposited data

Results flagged for a closer look

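CCL2 moved in opposite directions with passage in the 2 iPS lines by its brightest probe, -0.46 in the liver line and 0.32 in the stomach line (late minus early, log2). With 1 array for each line and passage this difference between the lines was not tested. A_04_P001372, the other CCL2 probe well above background on all 8 arrays, was at -0.91 and 1.08. A_04_P001371 (0.08 and -0.30) and A_04_P001374 (0.17 and -0.20) went the other way and were well above background on no iPS array. Intensities of the brightest probe on the iPS arrays were 9.54 to 19.6. The lowest detected intensities there were 7.05 to 8.28, so these differences lie at the edge of detection.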

How the results depend on the processing

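CCL2 and GRO-A kept their calls against somatic cells in every alternative with a value. GRO-A had none where probes had to be well above background on all arrays. With arrays left out in turn, the differences from somatic cells ran from -10.19 to -8.61 (iPS) and -9.81 to -8.23 (ES) for CCL2, from -11.43 to -10.18 and -11.93 to -11.43 for GRO-A, and from -4.05 to -1.75 and -2.91 to -0.61 for CXCL8. With normexp, CCL2 was at -6.76 in iPS and GRO-A at -7.85. CXCL8 lost its call in iPS cells without scaling (-1.89) and with the slide block (-3.19), and gained it in ES cells with normexp (-1.30), the mean of all probes (-5.26) and without the stomach cells (-2.91). CCL2 late against early turned to 0.043 with quantile normalization and ranged from -0.51 to 0.37 with arrays left out.

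Probes called in iPS against somatic cells fell from 19215 to 9927 with the slide block. In iPS against ES cells 2 were called without scaling and 6 with the replicate block, against 0. In late against early iPS cells the 8 calls became 0 without a filter, with the filter on all arrays, with raised dim values and with the slide or replicate block, and 0 to 1 with an array left out. The replicate block (the iPS line) changed no call of a chemokine gene by its brightest probe, but 2 other CXCL8 probes passed in ES cells with it. Of calls in iPS against somatic cells 51.4% were higher in iPS, 82.5% without scaling (median of all probes 1.03), 33.2% with normexp (-0.40) and 38.8% without a filter. In ES against somatic cells the shares were 53.7%, 81.5% (0.94), 34.0% (-0.33) and 40.1%.

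Among the other genes, signs turned without scaling for LY96 (0.38 in iPS, 0.10 in ES), MMP3 in iPS (0.17), MAP2K1 in ES (0.52) and OVGP1 in ES cells (0.014). With arrays left out, MAP2K1 in iPS ran from -0.018 (without the early stomach-line array) to 0.33, and MMP3 in ES from -0.45 (without the stomach cells) to 1.22. The causes were not tested. Signals near background limit what can be said of ES and iPS levels.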
